A study of Mus musculus with 12 samples.

Results

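Liver was compared with brain in formalin-fixed paraffin-embedded (FFPE) mouse tissue. The 6 arrays were chosen by their titles out of 12 in the series: 3 of FFPE liver and 3 of FFPE brain, 1 of each tissue at each of 3 times after death, and each liver array was set against the brain array of its own time. All samples came from male BALB/c mice 10 weeks old. Tissue of the 0 h group was removed just after death. Carcasses of the 3 h group stayed at room temperature and those of the 18 h group at 4 °C, so time and temperature changed together. FFPE pieces were held in 10% formalin for 24 h, the paraffin blocks were stored at room temperature over 7 d and cut into 10 µm slices, and their RNA was isolated with the RNeasy FFPE kit and amplified with the WT-Ovation FFPE V2 kit. The other 6 arrays were the fresh-frozen (FF) liver and brain at the same times, placed in RNAlater, extracted with RNeasy Mini and amplified from the 3' end with the 3'IVT Express kit; they are used below only where a tissue difference in FFPE is set beside the one in FF. Each condition had 1 array. The labels give neither the number of mice, nor whether a liver and a brain array came from 1 mouse, nor the brain region. They also do not say whether frozen and fixed pieces were cut from the same organ. The p-values below thus measure the spread among these arrays, which may be technical. For liver against brain it is the spread of the matched differences over the 3 times, so a change of the difference with time counts as error.

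The liver is built mostly of hepatocytes, which secrete the proteins of blood plasma, clear drugs and bile acids, run the urea cycle and make glucose and ketone bodies. Kupffer cells (resident macrophages), sinusoidal endothelium, stellate cells and bile duct cells make up most of the rest. Brain holds neurons, whose axons and synapses need vesicle proteins, neurotransmitter receptors, ion channels and microtubule motors, and glia: astrocytes, myelin-forming oligodendrocytes and microglia. In bulk tissue such as this, fewer cells of a type and less RNA per cell cannot be told apart.

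Values are log2 intensities, so a difference of 1 is 2-fold. Each of 17097 genes was represented by the probe set whose mean across the 12 arrays was highest. The test took in the 11502 genes that reached the median of the array on 3 or more of the 6 FFPE arrays. The 3 arrays of a single tissue were enough to pass, so a gene entered the test easily where it was high in 1 tissue, and the counts within gene lists below are descriptions. FFPE liver arrays correlated with each other at 0.974 to 0.989 across probe sets and FFPE brain arrays at 0.989, whereas liver and brain of the same time correlated at 0.589 to 0.604 (probe sets are not independent replicates). RNA from the 3' end of the Gapdh transcript exceeded that of its 5' end by 1.22, 1.25 and 1.22 at 0, 3 and 18 h in FFPE brain and by 1.04, 1.63 and 1.77 in FFPE liver. The same gap for Actb lay between -0.18 and 0.05 in all 6 arrays. The gap for Pcx, pyruvate carboxylase, was 0.49, 0.66 and 0.44 in FFPE brain and 2.75, 2.23 and 2.18 in FFPE liver. In brain its 3' end read only 5.69 to 5.84 and its 5' end 5.03 to 5.40, near the array medians (4.8 to 4.89). In liver the 3' end read 8.68 to 9.27, so the Pcx gaps of the 2 tissues are not comparable. In liver the Gapdh gap was thus narrowest at 0 h and the Pcx gap widest at 0 h, and their part in the results was not tested.

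The labelled tissues carried their defining transcripts. The hepatocyte genes Alb, Apoa1, Serpina1c and Cyp3a11 lay between 11.96 and 12.98 in the FFPE liver arrays, and Alb, the highest of them in brain, at 7.57, 7.03 and 7.06 there. The neuronal genes Snap25, Syt1, Nefl and Rbfox3 lay between 8.71 and 12.63 in FFPE brain, and Syt1, the highest of them in liver, at 6.55, 6.35 and 6.46. Several markers of other cell types read too low on the probe set used to be tested. They were Vsig4 and Timd4 of Kupffer cells, Lyve1 of endothelium, Krt19 and Epcam of bile ducts, P2ry12 of microglia and Slc1a3 of astrocytes. Of 5 pancreas markers tested 2 were higher in FFPE liver, where 32.5% of all genes tested were, and the median difference of the 5 was 0.13. The 2 were Ctrb1 (0.37 ± 0.13) and Cela1, at 8.86, 8.48 and 7.1 in liver against 4.07 to 4.18 in brain.

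In FFPE tissue 6758 of the 11502 genes tested (58.8%) differed between liver and brain at an adjusted p under 0.05 (limma with time as a block, Benjamini-Hochberg over all genes tested); 3739 (32.5%) were higher in liver and 3019 (26.2%) in brain. With the same sign at all 3 times and at least 2-fold, 2245 (19.5%) were higher in liver and 1745 (15.2%) in brain. A difference of 4-fold or more was seen for 1105 and 845 genes, of 16-fold or more for 383 and 210, and of 64-fold or more for 114 and 36. The typical SE of a difference was 0.146. The split between the tissues depended on the scaling: after quantile normalization of the 6 arrays, which shifted the median difference of all genes tested by -0.10 (from 0.07 to -0.04), the counts were 3349 in liver and 3655 in brain, and at 2-fold 1922 and 2025.

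The largest differences reached the range of the array. Snap25, a SNARE protein of synaptic vesicle fusion, read 12.55, 12.55 and 12.63 in FFPE brain at 0, 3 and 18 h and 3.4, 3.38 and 3.42 in FFPE liver. The liver minus brain difference was -9.18 ± 0.13 (SE, 3 matched pairs; adjusted p = 1.56e-07). Readings such as those of Snap25 in liver lie under the array medians (4.8 to 4.89), near the floor of the array, so no exact fold is given against them. Serpina1c, a member of the alpha-1-antitrypsin family, read 12.40, 12.38 and 12.35 in liver and 3.97, 3.02 and 2.98 in brain, a difference of 9.05 ± 0.21 (adjusted p = 2.43e-07). The Serpina1a to Serpina1e transcripts and the major urinary protein transcripts such as Mup3 are nearly alike in sequence, so a probe set named for 1 of them may read several. Cyp2e1, the cytochrome P450 that oxidises ethanol, read 12.55, 12.42 and 12.19 in liver and 4.34, 3.78 and 3.57 in brain. The 40 genes plotted were picked for the largest differences, so the lack of overlap between their tissues follows from the choice.

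**Figure D1:**
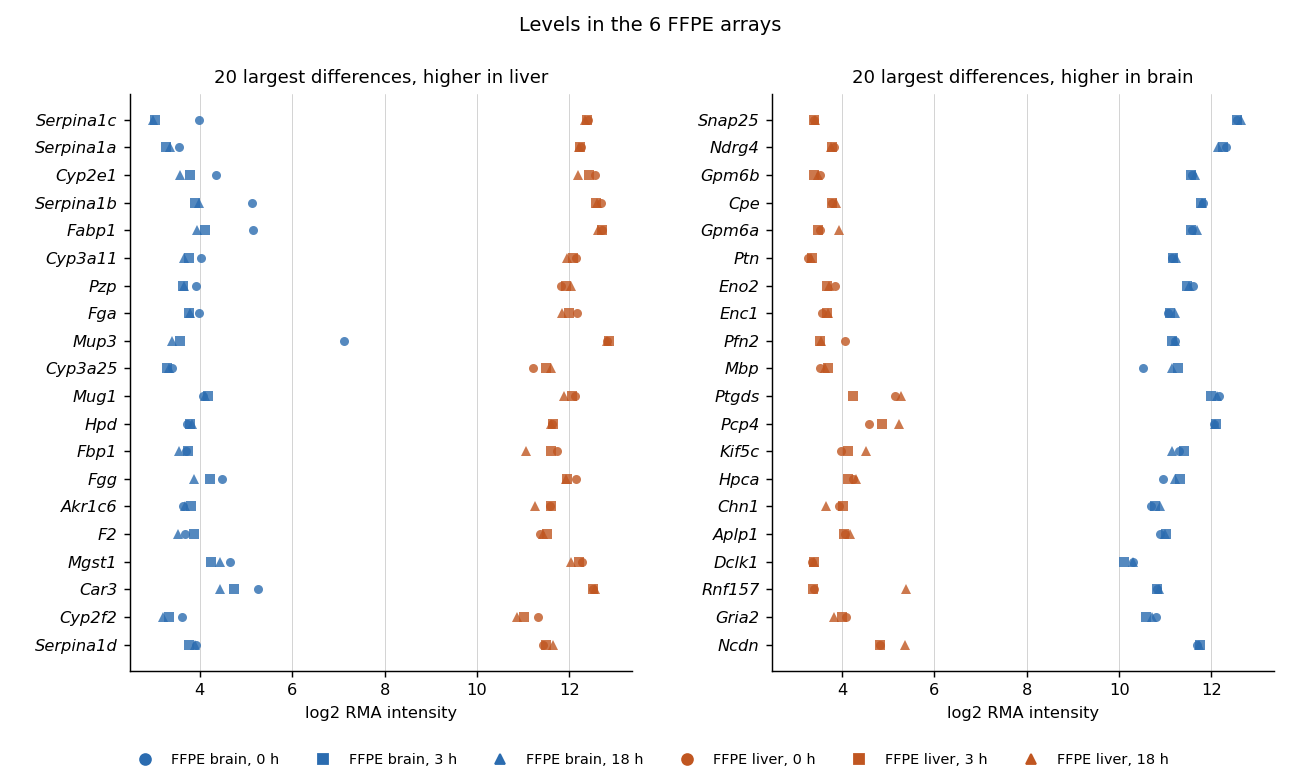
Log2 RMA intensity (horizontal axis) of the 20 genes with the largest difference in each direction, 1 point per FFPE array, with brain in blue, liver in orange and the shape giving the time after death. The genes were picked for their size of difference, so the gap between the tissues follows from the choice. The 0 h brain array stands to the right of the other brain arrays for Mup3 (7.12 against 3.56 and 3.39), Fabp1 and Serpina1b.

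Sequence upstream of the transcription start differed in composition between the genes that stood highest in each tissue. Promoters from RefSeq (GRCm38.p6) were matched by symbol for 310 of the 383 genes at least 16-fold higher in FFPE liver, 175 of the 210 at least 16-fold higher in brain and 9251 of the 11502 tested, and the 250 bases before the start were searched on both strands. GTTAAT, part of the site of the hepatocyte factor HNF1, occurred in 14.2% of the liver set, 3.43% of the brain set and 4.12% of all genes tested. TGACGTCA, the palindromic cyclic AMP response element (CRE), occurred in 0 of the 310 liver promoters (0%), in 6.86% of the brain set and in 2.63% of all genes tested. Over all 27025 promoters of the table these shares were 6.52% and 1.62%. A match is only a run of letters, not a bound site. Shown here are 2 liver promoters with GTTAAT close to the start and 2 brain promoters with the CRE, the match in capitals (in Fga it lies on the reverse strand as ATTAAC). Kif5c also holds ATTAAC, left in lower case, farther from the start. Fga lies at chr3:83025903-83026152, Alb at chr5:90460620-90460869, Gpm6b at chrX:166238693-166238942 and Kif5c at chr2:49619036-49619285, all on the plus strand, and the capitals begin 43, 32, 49 and 26 bases before the start.
Fga: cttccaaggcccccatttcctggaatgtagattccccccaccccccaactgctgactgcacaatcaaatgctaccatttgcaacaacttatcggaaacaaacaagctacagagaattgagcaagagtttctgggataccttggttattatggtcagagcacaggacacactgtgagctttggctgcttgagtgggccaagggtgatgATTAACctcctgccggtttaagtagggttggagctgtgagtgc
Alb: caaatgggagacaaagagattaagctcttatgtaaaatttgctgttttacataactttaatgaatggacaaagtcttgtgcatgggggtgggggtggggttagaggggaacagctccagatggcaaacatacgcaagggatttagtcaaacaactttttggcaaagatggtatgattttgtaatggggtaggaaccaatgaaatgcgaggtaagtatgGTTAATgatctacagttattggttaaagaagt
Gpm6b: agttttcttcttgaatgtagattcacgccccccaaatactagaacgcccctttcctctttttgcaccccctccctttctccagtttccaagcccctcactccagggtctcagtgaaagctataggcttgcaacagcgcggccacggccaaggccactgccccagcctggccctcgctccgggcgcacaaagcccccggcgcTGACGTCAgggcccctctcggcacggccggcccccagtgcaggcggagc
Kif5c: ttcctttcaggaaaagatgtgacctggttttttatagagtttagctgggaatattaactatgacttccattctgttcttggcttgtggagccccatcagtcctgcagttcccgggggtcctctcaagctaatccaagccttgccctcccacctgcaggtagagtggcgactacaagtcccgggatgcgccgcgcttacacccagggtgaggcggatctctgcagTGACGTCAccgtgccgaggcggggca

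The 4 genes read as follows. Fga, the alpha chain of fibrinogen, stood at 12.17, 12 and 11.84 in FFPE liver and 3.97, 3.76 and 3.78 in FFPE brain. Alb, serum albumin, stood at 12.80, 12.90 and 12.91 in liver, a difference of 5.65 ± 0.17. Gpm6b, a neuronal and myelin membrane glycoprotein, stood at 11.58, 11.55 and 11.64 in brain and 3.51, 3.4 and 3.47 in liver. Kif5c, a heavy chain of the kinesin motor that carries axonal cargo, stood at 11.29, 11.41 and 11.15 in brain and 3.98, 4.12 and 4.51 in liver. For all 4 the tissues were far apart at every time. Other features of the same windows also differed: the TATA box TATAAA occurred in 18.7% of the liver set, 10.9% of the brain set and 7.35% of all genes tested, the GC box GGGCGG in 29.0%, 49.1% and 55.7%, and the forkhead core TGTTTAC in 5.16%, 1.71% and 2.24%. The median number of CpG dinucleotides per window was 4 in the liver set, 14 in the brain set and 15 in all genes tested, with a median GC content of 51.6%, 60.4% and 59.2%. The part of base composition in the motif shares was not tested.

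Secreted proteins of the hepatocyte were higher in FFPE liver. Of 27 plasma protein genes measured and tested, 26 were higher in liver, against 32.5% of all genes tested, and none in brain; the median difference was 6.68 in FFPE and 6.61 in FF, where that of all genes was 0.07 in each. The exception was Ttr (transthyretin), described below. Apoh differed by 7.50 ± 0.14, Hpx (haemopexin, which binds free haem) by 7.49 ± 0.13 and Apoc3 by 7.30 ± 0.13. All 33 complement and coagulation genes tested were higher in liver, with a median of 5.49 in FFPE and 6.44 in FF. They included the fibrinogen chains Fga, Fgg (7.81 ± 0.14) and Fgb (7.17 ± 0.13), prothrombin F2 (7.75 ± 0.13) and the terminal complement gene C9 (7.17 ± 0.13). Of 17 acute phase genes measured 13 were tested and all 13 were higher in liver. Among them were haptoglobin (Hp, 7.59 ± 0.14) and hepcidin (Hamp, 7.05 ± 0.13), the hormone that limits iron release.

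In the FFPE brain arrays the plasma protein genes lay, at the median, near the array medians (4.8 to 4.89) and a little higher at 0 h. Leaving out Ttr, 18 of the 26 were highest in the 0 h FFPE brain array, 3 of them by 2-fold or more. Their median there was 5.09 against 4.73 at 3 h and 4.77 at 18 h. How many of all genes tested were highest at 0 h was not counted. Serpina1c in FF brain showed the same order, at 8.85, 5.46 and 5.36. The 24 neuron markers in FFPE liver, in turn, had medians of 4.74, 4.75 and 4.66. The source of the plasma protein readings in brain was not tested.

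Detoxifying enzymes followed. Of 26 cytochrome P450 genes measured, 22 were tested and 20 were higher in FFPE liver, with a median difference of 6.13 (5.91 over all 26). Cyp3a11, a broad drug oxidase, read 12.15, 12.09 and 11.96 in liver against 4.03, 3.76 and 3.65 in brain. Cyp2b9 and Cyp2b10 did not pass, at -0.25 ± 0.13 and 0.38 ± 0.14. Conjugating enzymes, which make drugs and hormones soluble, were higher in liver in 25 of 25, with a median of 4.66; examples are Ugt2b1 (7.60 ± 0.13) and the microsomal glutathione transferase Mgst1 (7.73 ± 0.14). All 22 genes of bile acid synthesis and transport were higher in liver (median 4.37). The hydroxylase Cyp7b1 differed by 6.66 ± 0.13 and Slc10a1, the sodium-dependent bile acid importer, by 5.56 ± 0.14.

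Metabolic pathways of the hepatocyte were also higher in FFPE liver. All 31 genes of the urea cycle and amino acid breakdown passed, with a median of 5.35. Cps1, the entry enzyme of the urea cycle, read 12.09, 12.06 and 11.70 in liver and 5.01, 5.01 and 4.97 in brain. Hpd and Hgd, enzymes of tyrosine breakdown, differed by 7.85 ± 0.13 and 7.33 ± 0.13. Fatty acid oxidation and ketone synthesis were higher in liver in 21 of 21 genes (median 3.90), led by the fatty acid binding protein Fabp1 at 8.28 ± 0.23. Of 14 genes of gluconeogenesis and sugar metabolism tested, 13 were higher in liver, among them Fbp1 (7.81 ± 0.15) and the glucose 6-phosphatase G6pc (6.33 ± 0.14). Of 21 peroxisome genes measured, 19 were tested and all 19 were higher in liver. Urate oxidase (Uox) differed by 7.28 ± 0.14 and catalase (Cat) by 5.56 ± 0.13. Cholesterol and fatty acid synthesis differed less: 13 of the 21 genes tested were higher in liver, 8 did not pass, and the median was 1.13.

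Transcription factors of the hepatocyte were higher in FFPE liver in all 18 tested of 20 measured, with a median difference of 3.07 in FFPE and 3.87 in FF. Hnf4a, a nuclear receptor that maintains hepatocyte identity, read 10.57, 10.65 and 10.82 in liver and 4.80, 4.85 and 4.70 in brain. Its difference was 5.90 ± 0.14, and 4.54 over the mean of its probe sets. Cebpa differed by 5.38 ± 0.20 and the xenobiotic receptor Nr1i3 by 5.27 ± 0.16. Nr1h4, the bile acid receptor, differed by 2.65 ± 0.17 in FFPE and by 5.30 in FF. Of 16 genes of iron, haem and copper handling tested, 12 were higher in liver; the metallothionein Mt1 (-2.64; -1.24 over the mean of its probe sets) and the ferritin heavy chain Fth1 (-0.49 ± 0.14) were higher in brain, the latter not past the threshold without the 3 h or the 18 h pair.

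Cells of the liver other than hepatocytes left a smaller signal. Of 14 Kupffer cell markers measured, 9 were tested and 6 were higher in FFPE liver, with a median of 1.74 (0.80 over all 14) against 2.77 in FF. Clec4f, a lectin of Kupffer cells, read 8.28, 7.11 and 7.51 in liver and 5.35, 5.12 and 5.10 in brain. Sinusoidal endothelial markers were higher in liver in 10 of the 11 tested (median 1.30 in FFPE, 2.50 in FF). Clec4g read 8.37, 7.46 and 8.24 in liver and 4.78 to 4.89 in brain, and the scavenger receptor Stab2 differed by 1.20 ± 0.18 in FFPE and 3.63 in FF. Both lists dipped at 3 h: their medians at 0, 3 and 18 h were 2.31, 0.69 and 2.22 for Kupffer cells and 1.52, 0.86 and 1.91 for endothelium. The mean level of the tested Kupffer markers was 7.07, 6.20 and 6.66 in the liver arrays and 5.01 to 5.14 in the brain arrays, so the dip lay in the liver array. Of 10 stellate cell and matrix genes tested 6 were higher in liver (median 0.60), led by Ecm1 at 4.13 ± 0.22 and decorin (Dcn) at 3.28 ± 0.21. Of 6 bile duct markers tested, Krt8, Krt18 and Cdh1 were higher in liver and Sox9 in brain (-0.75 ± 0.14); Krt8 and Krt18 are keratins of hepatocytes as well.

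**Figure D2:**
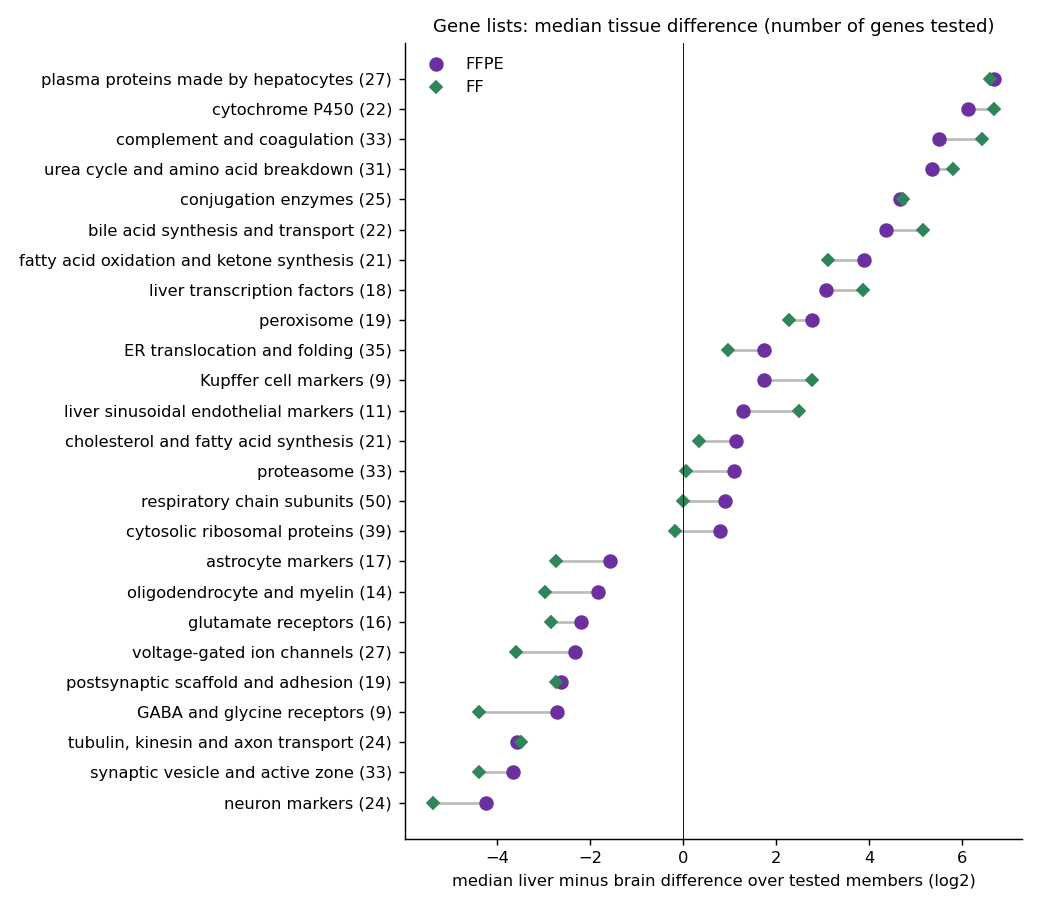
Median liver minus brain difference (log2, horizontal axis) over the tested genes of each list, with the number of genes in brackets; purple circles are FFPE, green diamonds FF, and the line joins them. Lists of hepatocyte products lie between 2 and 7 in both, while the neuron markers lie nearer to 0 in FFPE (-4.25) than in FF (-5.38) and the tubulin and kinesin list does not (-3.58 and -3.48).

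Neuron markers were higher in FFPE brain. All 24 measured and tested passed, against 26.2% of all genes tested, with a median difference of -4.25 in FFPE and -5.38 in FF. Rbfox3, the antigen of the NeuN antibody, read 8.71, 8.99 and 8.97 in brain and 4.44, 4.30 and 4.33 in liver. Eno2, the neuronal enolase, differed by -7.77 ± 0.13 and the neurofilament light chain Nefl by -6.12 ± 0.13. Axonal transport genes were also higher in brain in 24 of 24 tested, of 25 measured, with a median of -3.58. Kif5a, the neuronal kinesin heavy chain, differed by -6.53 ± 0.14, and Map2, a microtubule protein of dendrites, by -4.82 ± 0.15.

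Presynaptic genes of the vesicle and active zone were higher in brain in 33 of 33 tested, of 34 measured (median -3.66 in FFPE, -4.40 in FF). Synaptophysin (Syp) read 10.72, 10.81 and 10.89 in brain and 4.64, 4.54 and 4.59 in liver, a difference of -6.22 ± 0.13; over the mean of its probe sets it was -3.13. Complexin Cplx1 differed by -4.91 ± 0.17 and the vesicle phosphoprotein Syn2 by -5.14 ± 0.13. On the postsynaptic side 18 of 19 tested scaffold and adhesion genes were higher in brain, of 21 measured. Nrxn3 differed by -3.94 ± 0.14 and the scaffold Dlg2 by -3.30 ± 0.13. Homer2 was higher in liver at 1.11 ± 0.20, but stood at -0.016 over the mean of its probe sets.

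Receptors and channels differed by less than the vesicle genes at the median. Of 20 glutamate receptor genes measured, 16 were tested and 12 were higher in FFPE brain (median -2.20 in FFPE, -2.84 in FF). Gria2, an AMPA receptor subunit, read 10.79, 10.58 and 10.72 in brain and 4.08, 4.00 and 3.82 in liver. Of 14 GABA and glycine receptor genes measured, 9 were tested, all 9 higher in brain, with a median of -2.72 in FFPE and -4.38 in FF; the metabotropic subunit Gabbr1 differed by -5.59 ± 0.16. Voltage-gated channels were higher in brain in 25 of 27 tested (median -2.33 in FFPE, -3.60 in FF), led by the sodium channel Scn2a at -5.33 ± 0.14. Gad1, which makes GABA, differed by -5.33 ± 0.13 in FFPE and -7.68 in FF. Of 25 genes of GABA neurons and neuropeptides measured, 20 were tested, and 11 of those were higher in brain. The opioid precursor Penk (-4.97 ± 0.18) and the tachykinin Tac1 (-4.34 ± 0.25), both abundant in striatum, were among them. Of 8 monoamine and acetylcholine genes tested 5 were higher in brain, including the dopamine receptors Drd2 (-1.75 ± 0.15) and Drd1 (-1.23 ± 0.21). Ddc, the decarboxylase that also works in liver, was higher in liver at 3.48 ± 0.21 (1.79 over the mean of its probe sets).

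The labels name no brain region, so markers of regions were read. All 8 striatal markers and all 9 tested of 12 hippocampus and cortex markers were higher in FFPE brain, among them Ppp1r1b (-4.06 ± 0.14) and the cortical factor Tbr1 (-4.96 ± 0.14). Of 15 cerebellum and hindbrain markers measured only 4 passed the filter; Pcp4 (-7.17 ± 0.16) and Calb1 (-3.99 ± 0.13), which are not confined to cerebellum, were higher in brain and Car8 (0.87 ± 0.16) in liver. Of 10 thalamus and hypothalamus markers tested 8 did not pass. Brain transcription factors were higher in brain in 11 of 14 tested, of 22 measured, led by Bcl11b at -5.78 ± 0.15, while Nfib was higher in liver at 1.11 ± 0.14.

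Most oligodendrocyte and astrocyte genes tested were higher in FFPE brain, and microglia markers were not. Of 14 oligodendrocyte and myelin genes tested 12 were higher in brain, with a median of -1.82 in FFPE and -2.96 in FF. Mbp, myelin basic protein, read 10.52, 11.28 and 11.15 in brain and 3.52, 3.69 and 3.62 in liver. Aspa was higher in liver at 0.71 ± 0.22, a call lost without the 0 h or the 3 h pair. Of 17 astrocyte genes tested 13 were higher in brain (median -1.57 in FFPE, -2.72 in FF), led by the aldolase Aldoc at -6.31 ± 0.20 and the gap junction gene Gja1 at -5.77 ± 0.13. Aldh1l1, a folate enzyme used as an astrocyte marker, was higher in liver at 5.36 ± 0.15 (2.88 over the mean of its probe sets). The lipid carrier Apoe, at 11.98, 11.98 and 11.89 in liver and 8.16, 8.15 and 8.43 in brain, was higher in liver as well. Clu was too, at 0.58, but it did not pass after quantile normalization, at 0.18, or without the 0 h or the 3 h pair. Of 8 microglia markers tested none passed toward brain in FFPE, and the median was 0.20 in FFPE but -0.59 in FF. C1qb, a macrophage gene that Kupffer cells share, passed toward liver in FFPE (0.85 ± 0.15).

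Metabolic enzymes, transporters and trafficking proteins that exist as related genes were compared in pairs, a liver form against a brain form, by their tissue differences and not by their levels. Of the pairs with both genes tested, opposite and passing differences were seen for glucose transporters (Slc2a2 at 6.16 ± 0.14, Slc2a3 at -4.74 ± 0.19), pyruvate kinases (Pklr at 2.13 ± 0.23, Pkm at -4.87 ± 0.15) and carnitine palmitoyltransferases (Cpt1a at 5.06 ± 0.14, Cpt1c at -1.95 ± 0.14). The fatty acid binding proteins (Fabp1 at 8.28, Fabp7 at -1.96 ± 0.13), glycogen phosphorylases (Pygl at 5.77 ± 0.14, Pygb at -2.50 ± 0.15), arginases (Arg1 at 6.46 ± 0.14, Arg2 at -0.87 ± 0.14) and vesicle SNAREs (Vamp8 at 4.55 ± 0.24, Vamp2 at -4.09 ± 0.19) did so as well. Dynamins did so only in part: Dnm1 stood at -3.46 ± 0.13, while Dnm2 at 0.84 ± 0.16 was not past the threshold after quantile normalization, at 0.42, or without the 3 h pair. In other pairs 1 form carried the difference. The glycogen synthase Gys2 differed by 5.23 ± 0.16 and Gys1 by 0.15 ± 0.15, and the G protein Gnao1 by -4.19 ± 0.14 and Gnai2 by 0.12 ± 0.13. Both kinesin heavy chains were higher in brain, Kif5c by -7.08 ± 0.17 and the widely expressed Kif5b by -1.2 ± 0.13.

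Genes of basic cell machinery leaned toward FFPE liver. Of 39 cytosolic ribosomal protein genes tested, 26 were higher in liver and 1 in brain, with a median of 0.78 in FFPE and -0.18 in FF; after quantile normalization the counts were 13 and 7 and the median 0.20. Rpl12, of the large subunit, read 9.50, 9.65 and 9.23 in liver and 7.58, 7.49 and 7.93 in brain, 1.79 ± 0.19 in FFPE against -0.27 in FF. Of 50 respiratory chain genes 36 were higher in liver and none in brain (median 0.90 in FFPE, 0.01 in FF), but 21 and 9 after quantile normalization (median 0.30). Ndufa6, a subunit of complex I, read 9.27, 9.24 and 9.08 in liver and 5.78, 5.84 and 5.50 in brain. Proteasome genes were higher in liver in 23 of 33 (median 1.10 in FFPE, 0.06 in FF; 20 against 3 in brain after quantile normalization, median 0.67). Genes of translocation and folding in the endoplasmic reticulum, the entry to secretion, were higher in liver in 30 of 35 with a median of 1.75, and 1.27 after quantile normalization. Sec62, a translocation protein, differed by 4.93 ± 0.13 (1.25 over the mean of its probe sets). Of 13 common reference genes tested 7 differed, 2 toward liver and 5 toward brain, where 58.8% of all genes tested differed, or 2 and 8 after quantile normalization, and Ywhaz stood at -2.77 ± 0.16.

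The tissue difference in FFPE was set beside that in FF, which was measured on other arrays. Across the 11502 genes the differences correlated with a Pearson r of 0.898 and a Spearman rho of 0.808. The least-squares slope of FFPE on FF was 0.80, a value that scatter between the 2 also lowers. The SD of the differences at 0, 3 and 18 h was 1.79, 1.78 and 1.71 in FFPE and 1.95, 1.98 and 1.96 in FF. These values are across genes, which are not independent replicates. Of the genes at least 2-fold higher in FFPE liver, 1530 were so in FF (68.2% of the FFPE set and 78.8% of the FF set). For brain the shared genes numbered 1580, or 90.5% of the FFPE set and 63.7% of the FF set. Genes called in both had a median difference of 2.65 in FFPE and 2.59 in FF where higher in liver, and of -2.05 and -2.86 where higher in brain. A direct test of the FFPE minus FF tissue difference passed for 6192 genes (53.8%), 4065 toward liver (35.3%) and 2127 toward brain (18.5%); after quantile normalization these were 2269 and 2769. The preservation and the labelling kit changed together, so their parts cannot be told apart.

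**Figure D3:**
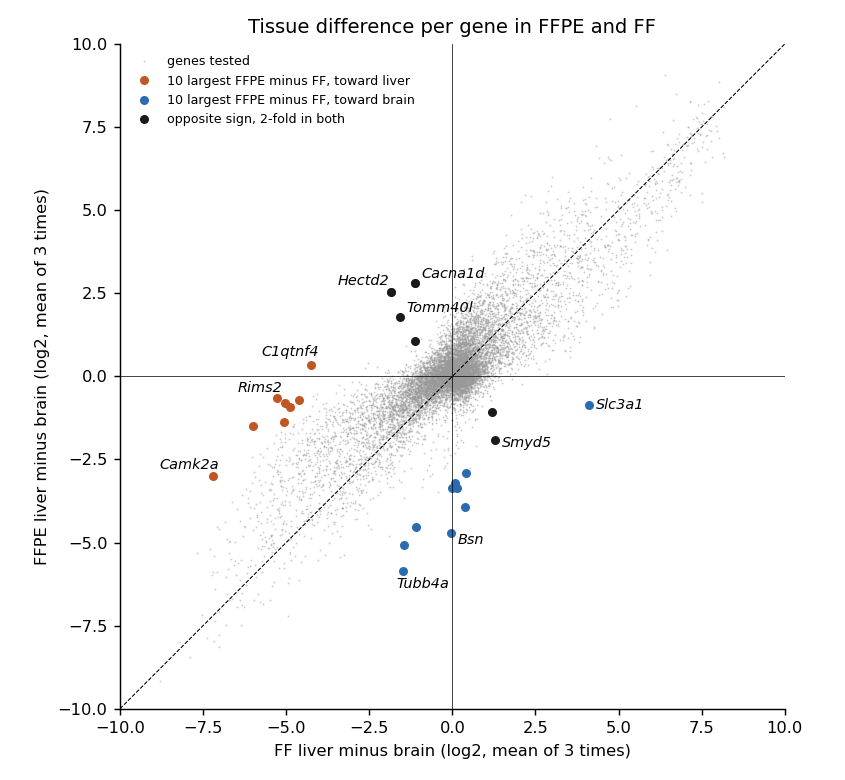
Liver minus brain difference (log2, mean of 3 times) in FF (horizontal axis) and FFPE (vertical axis), 1 grey point per gene tested; the dashed line is equality. Most genes follow the line with a slope below it; coloured points are the 10 genes in each direction with the largest FFPE minus FF difference, and black points the 6 genes with opposite sign and at least 2-fold in both.

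For some neuronal genes the tissue difference was wider in FFPE than in FF on the probe set used. Bsn, the active zone protein bassoon, read 10.06, 10.19 and 10.45 in FFPE brain and 5.60, 5.54 and 5.45 in FFPE liver, but 5.59, 5.06 and 5.04 in FF brain and 5.34, 5.40 and 4.86 in FF liver. The FFPE minus FF difference was -4.67 ± 0.23 (adjusted p = 3.34e-08), but another Bsn probe set gave -4.54 in FFPE and -3.27 in FF. Tubb4a, a beta tubulin, stood at -5.85 ± 0.13 in FFPE and -1.47 in FF, and the kinesin Kif1a at -5.06 ± 0.13 and -1.46, while the other Kif1a probe set gave -1.10 and -1.86. The synaptic adhesion gene Nlgn1, at 7.35 to 7.52 in FFPE brain and 3.98 to 4.23 in FFPE liver, lay between 3.78 and 3.87 in all 6 FF arrays. For others it was wider in FF. Rims2, another active zone gene, read 5.97, 6.05 and 6.20 in FFPE brain against 5.39 to 5.43 in FFPE liver, a difference of -0.66 ± 0.13, while it was -5.27 in FF. C1qtnf4 stood at 0.35 ± 0.13 in FFPE, which did not pass, and at -4.26 in FF.

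The probe set mattered for such genes. Camk2a, the kinase of the postsynaptic density, had a difference of -2.98 ± 0.24 in FFPE and -7.20 in FF on the probe set used. Of its other 5 probe sets, 3 read above 9 in FFPE brain, and their differences in FFPE and FF were -7.85 and -2.25, -6.40 and -0.65, and -5.39 and -5.64. The other 2 read below 5 in FFPE brain, with -0.80 and -3.75, and -0.25 and 0.62. Whether the larger difference was in FF or in FFPE thus varied with the probe set. Over all 2166 genes called at 2-fold with several probe sets, 89.1% of the other 3842 probe sets had the same sign in FFPE, 49.1% reached 2-fold the same way and 12 (0.312%) reached 2-fold the opposite way, in 11 genes.

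Opposite signs in FFPE and FF, both passing, were found for 288 genes, 151 of them higher in liver in FFPE, and 6 were at least 2-fold in both: Smyd5, 1810044D09Rik, Dmtf1, Tomm40l, Cacna1d and Hectd2. Tomm40l, a mitochondrial import gene, read 8.92, 8.98 and 9.11 in FFPE liver and 7.27, 7.07 and 7.34 in FFPE brain, yet 6.28, 6.17 and 6.22 in FF liver and 7.88, 7.88 and 7.66 in FF brain. Its FFPE difference was 1.78 ± 0.13 and its FF difference -1.58. By RefSeq, Tomm40l overlaps Nr1i3 and Apoa2, which differed by 5.27 and 7.00 in FFPE and by 4.81 and 6.94 in FF. Cacna1d, a calcium channel gene, stood at 2.80 ± 0.19 in FFPE and -1.14 in FF on the probe set used. It overlaps Chdh, a choline enzyme at 2.80 in FFPE and 4.85 in FF, and Dcp1a, at 0.14 and -0.57. The other Cacna1d probe set gave 0.017 in FFPE and 0.47 in FF, that of Hectd2 0.02 and 0.39 and that of 1810044D09Rik 0.10 and 1.00. The other Tomm40l probe set kept the opposite signs, at 4.26 and -1.04. Smyd5 stood at -1.92 ± 0.22 in FFPE (-0.55 over the mean of its probe sets) and 1.29 in FF. Slc3a1, a cystine transporter subunit that overlaps Prepl, stood at -0.87 ± 0.18 in FFPE and 4.12 in FF. Among all genes tested 20.3% overlap another coding gene, among the 288 genes 25.3%, and among the 6 there were 3. The part of overlapping transcripts in these values was not tested.

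The FFPE tissue contrast was then compared between times. Genes at least 2-fold higher in liver numbered 2570 (22.3%) at 0 h, 2444 (21.2%) at 3 h and 1973 (17.2%) at 18 h, while those higher in brain numbered 1765 (15.3%), 1763 (15.3%) and 1853 (16.1%); these are pairs of single arrays with no test. Of the 2570 liver genes at 0 h, 763 were not 2-fold at 18 h, and of the 1765 brain genes 241 were not. The matching FF counts were 2100, 2003 and 1953 for liver and 2511, 2517 and 2567 for brain. Across genes the differences correlated at 0.978 between 0 h and 3 h and 0.956 between 0 h and 18 h.

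A test of the change in tissue difference from 0 h, as shared by FFPE and FF, passed for 3 genes at 3 h (0.0261%) and for 573 at 18 h (4.98%), where 864 and 2300 had an unadjusted p under 0.05. Both tests use the same 0 h arrays. They treat frozen and fixed tissue as separate readings of each time, although both pieces may come from the same animal. In that case a difference between animals or dissections could pass as a change with time, and this was not tested. At 3 h, 2 genes (0.0174%) moved toward brain, Ttr and Plekhg1, and 1 (0.00869%), Mup3, toward liver. The count of 2 was 0 without FF liver 3 h or FFPE liver 3 h, 1 without FFPE brain 18 h, FFPE liver 0 h or any of the FF brain arrays, 4 without FFPE brain 0 h, 6 without FF liver 0 h and 9 without FF liver 18 h or FFPE liver 18 h. The count of 1 was 4 without FF liver 3 h, 7 without FF liver 18 h or FFPE liver 18 h and 18 without FFPE brain 0 h.

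At 18 h, 505 genes (4.39%) moved toward brain and 68 (0.591%) toward liver. All 505 were lower in the FFPE liver array at 18 h than at 0 h, 287 of them by 2-fold or more, while 1 was 2-fold or more higher in the FFPE brain array. Their median change was -1.05 in FFPE liver and 0.11 in FFPE brain, against -0.05 and 0.02 for all genes tested. At 0, 3 and 18 h their median FFPE difference was 1.48, 1.09 and 0.26, and 206 lost a 2-fold difference. The FFPE arrays were part of the test that picked these genes, so a fall of their difference from 0 h to 18 h follows largely from the choice. The FFPE liver 18 h array also had the widest Gapdh gap (1.77) but the narrowest Pcx gap of the liver arrays (2.18), and the part of this was not tested. The count of 505 turned on single arrays: it was 1035 without FF liver 18 h, 291 without FFPE liver 0 h, 93 without FF brain 0 h, 83 without FFPE brain 0 h, 74 without FF brain 18 h and 45 without FFPE brain 18 h, and 157 after quantile normalization. The count of 68 was 265 without FFPE liver 18 h, 126 without FF liver 18 h, 40 without FF liver 0 h, 36 without FF brain 3 h or FFPE brain 3 h, 29 without FFPE brain 0 h, 6 without FF brain 0 h or FFPE brain 18 h and 3 without FF brain 18 h.

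**Figure D4:**
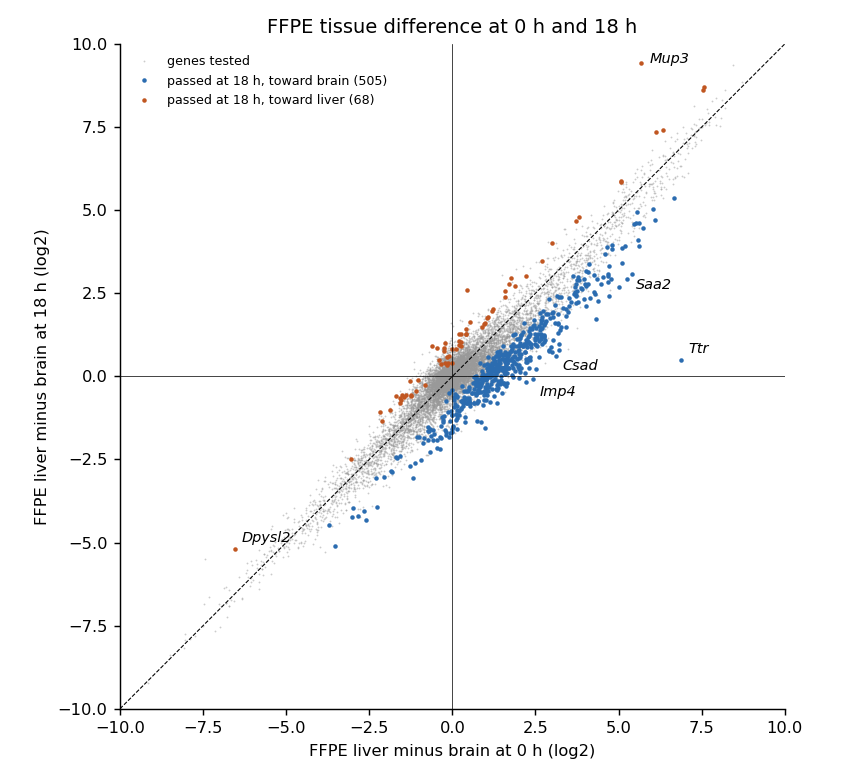
FFPE liver minus brain difference (log2) at 0 h (horizontal axis) and 18 h (vertical axis), 1 grey point per gene tested, with the dashed line at equality. The 505 genes that passed toward brain (blue) lie below the line, most of them (447) to the right of 0, and the 68 that passed toward liver (orange) lie above it. The test that picked them used these arrays, so their side of the line follows largely from the choice.

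Among the genes that moved toward brain at 18 h were liver products. The acute phase gene Saa2 read 9.05, 9.25 and 6.59 in FFPE liver and 3.79, 3.77 and 3.66 in FFPE brain, a change in difference of -2.42 ± 0.19 (adjusted p = 8.93e-05) with FF arrays included; on the probe set with the highest mean in FFPE its tissue difference was 0.79 in place of 4.56. Apom, an apolipoprotein, read 11, 10.49 and 8.54 in FFPE liver and 5.79 to 5.99 in FFPE brain, a change of -2.00 ± 0.22. Csad, an enzyme of taurine synthesis, read 8.03, 6.37 and 5.52 in FFPE liver against 4.81 to 4.92 in FFPE brain. In each of these the 18 h liver array was the lowest and the brain arrays hardly moved. Toward liver the largest changes came from the 0 h brain arrays: Mup3 read 7.12, 3.56 and 3.39 in FFPE brain and 9.56, 6.75 and 5.98 in FF brain, with 12.81 to 12.86 in FFPE liver, Fabp1 read 5.15, 4.12 and 3.93 in FFPE brain, and Apoa1 6.79, 5.41 and 5.59. The FFPE tissue difference of Mup3 was 8.14 ± 0.69 over the 3 pairs and 9.37 without the 0 h pair. Dpysl2, a protein of axon growth, rose instead in the 18 h liver array, at 4.92, 4.81 and 6.21, with 11.39 to 11.46 in FFPE brain.

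Ttr, which hepatocytes and the choroid plexus both secrete, was the widest change at both times. It read 5.77, 12.52 and 12.03 in FFPE brain and 12.66, 12.51 and 12.53 in FFPE liver, so only the 0 h pair differed. Its tissue difference of 2.46 ± 1.23 did not pass (adjusted p = 0.13; it passed in the model of all 12 arrays) and was 0.24 without the 0 h pair. FF brain gave 8.68, 12.72 and 12.21, and the shared change was -5.46 ± 0.66 at 3 h and -4.93 ± 0.66 at 18 h. Other choroid plexus genes in FFPE brain were low at all times: Kl at 5.56, 5.91 and 5.33, Folr1 at 4.43, 4.64 and 4.55 and Kcnj13 at 4.49, 4.93 and 4.79. In FF brain Kcnj13 read 4.94, 7.05 and 5.60 and Folr1 4.24, 5.87 and 5.25, while Kl read 3.84, 3.74 and 3.94. The mean level of the 9 tested choroid plexus and ependymal genes, Ttr included, was 4.79, 5.79 and 5.64 in FFPE brain and 6.98 to 7.12 in FFPE liver. The part of sampled choroid plexus in the Ttr values was not tested.

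The machinery lists narrowed at 18 h in the FFPE medians. At 0, 3 and 18 h the median differences were 0.95, 0.80 and 0.29 for ribosomal proteins, 1.15, 0.96 and 0.61 for the respiratory chain, 1.33, 1.31 and 0.72 for the proteasome and 1.96, 1.88 and 1.49 for the endoplasmic reticulum list, while the median of all genes tested was 0.07, 0.07 and 0.05. In the shared test 10 of 33 proteasome genes, 9 of 35 endoplasmic reticulum genes, 4 of 50 respiratory chain genes and 3 of 39 ribosomal protein genes passed toward brain at 18 h, against 4.39% of all genes tested, and none toward liver. Psma1, of the proteasome core, read 8.30, 8.21 and 7.27 in FFPE liver and 6.29, 6.32 and 6.48 in FFPE brain. Some hepatocyte lists were also lower at 18 h than at 0 h: bile acid genes went from 4.72 to 3.91, iron, haem and copper genes from 4.46 to 3.79, acute phase genes from 6.01 to 5.38 and fatty acid oxidation from 4.19 to 3.67. Cytochrome P450 genes were only slightly lower, at 6.14, 6.20 and 6.07, and plasma proteins were higher, at 6.39, 6.81 and 6.66. The mean level of the plasma protein genes was 11.70, 11.73 and 11.64 in FFPE liver and 5.26, 5.11 and 5.07 in FFPE brain. The neuron markers stood at -4.10, -4.13 and -4.47.

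**Figure D5:**
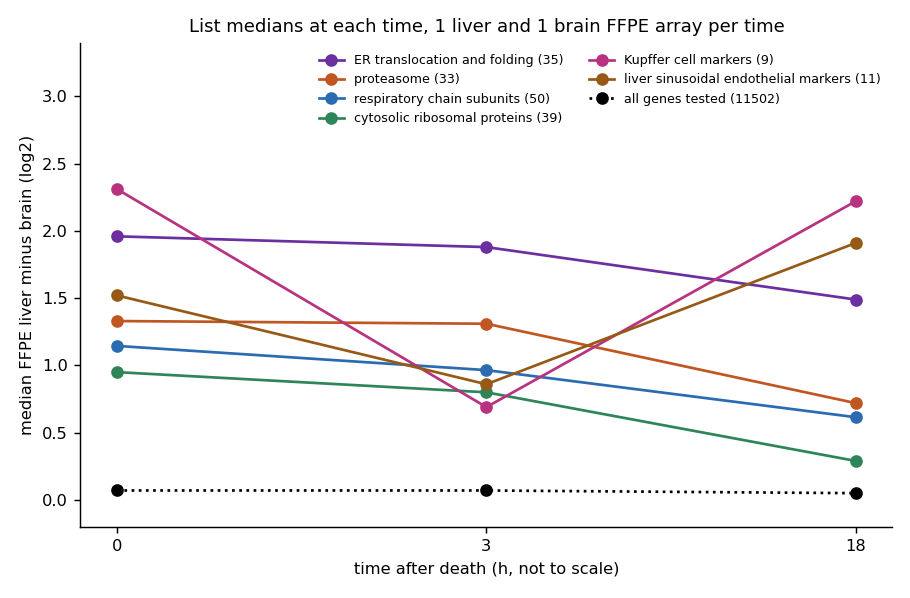
Median FFPE liver minus brain difference (log2, vertical axis) over the tested genes of 6 lists at 0, 3 and 18 h after death, from 1 liver and 1 brain array per time, with all 11502 genes tested as a dotted line; lines only join the points. The 4 machinery lists are lowest at 18 h, while the Kupffer cell and endothelial lists are lowest at 3 h.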

How the data were processed

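The authors deposited log2 intensities of a mouse Affymetrix array, made with RMA in Expression Console per the submitters' processing notes; no version is given, nor whether all arrays were run together. Array medians were 4.8 to 4.89 in FFPE and 4.65 to 4.68 in FF. Of 45037 probe sets (104 controls apart), the platform annotation gave 1 gene for 28898, several for 551 and none for 15588. Liver and brain were compared in limma 3.58.1 (R 4.3.3), two-sided, with tissue and time as terms (2 residual degrees of freedom). FFPE against FF, and 3 h and 18 h against 0 h, used 12 arrays and 8 coefficients: 4 tissue and preservation means, and 3 h and 18 h changes per tissue shared by FFPE and FF (4 residual degrees of freedom). The models were tested on simulated data. Genes named were the 20 largest differences each way, up to 6 per list and direction and every member against the rest, the gene pairs, the 10 largest FFPE minus FF differences and shifts each way, and opposite signs; markers, overlapping genes and Camk2a's other probe sets were added after their values were seen. Members and lists were chosen with earlier results of these data known. Alternatives covered the filter, scaling, probe set, time block, variance model and left-out arrays. Array number limits the precision.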

Additional observations from a re-analysis of the deposited data

Results flagged for a closer look

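Each result here is a tissue difference (liver minus brain, log2) that differed between 2 conditions by the model of all 12 arrays. Between FFPE and FF, the difference was lower in FFPE (toward brain) by the FFPE minus FF values of Slc3a1 -4.99, Bsn -4.67, Tubb4a -4.38, Tmem229a -4.31, Kif1a -3.60, Unc79 -3.50, Ncam2 -3.41, Nlgn1 -3.33, Gfra2 -3.31 and Gpr158 -3.31. It was higher in FFPE (toward liver) for Rims2 4.61, C1qtnf4 4.61, Cracdl 4.49, Hectd2 4.40, Ly6h 4.23, Camk2a 4.22, Pgap4 3.96, Cacna1d 3.94, Icam5 3.90 and Gas7 3.70. The other opposite-sign genes had Smyd5 -3.21, 1810044D09Rik -2.27, Dmtf1 2.20 and Tomm40l 3.36. All these values hold for the probe set used, and other probe sets of some genes went the other way. Among them were Gas7 (-4.64 in FFPE and -2.88 in FF) and Gpr158 (-0.20 and -1.41). For Tmem229a another probe set went the other way (-2.44 and -3.90) and a further probe set did not (-2.19 and -1.44).

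Between 0 h and 3 h the difference changed by -5.46 for Ttr, -1.56 for Plekhg1 and 3.20 for Mup3. Plekhg1 read 4.76, 5.93 and 4.96 in FFPE brain, highest at 3 h. Between 0 h and 18 h it changed toward brain for Ttr -4.93, Saa1 -2.43, Saa2 -2.42, Imp4 -2.03, Csad -2.02, Apom -2.00, Cand1 -1.72, Obp2a -1.71, Dpy30 -1.68 and Suox -1.55. It changed toward liver for Mup3 3.62, Fabp1 2.10, Apoa1 1.84, Myh9 1.56, Ntn1 1.49, Gm4274 1.44, Dpysl2 1.22, Prpf4b 1.12, Krt79 1.01 and Ctdsp2 1.00.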

How the results depend on the processing

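Of 823 genes followed under 20 other settings, 697 passed in the comparison reported and 86 of these lost the call at least once. For 655 of the 823 no change was counted under any setting. In genes that had not passed, a change of direction was not counted, even where the threshold was crossed with it. Among the 697 that passed, liver or brain direction turned for 8 genes. After quantile normalization these were Cycs (-0.021), Ndufb9 (-0.13), Rpl35 (-0.088), Rps4x (-0.17) and Rps6 (-0.068). Over the mean of probe sets they were Homer2 (-0.016) and Rpl15 (-0.17), and with the probe set chosen on the 6 FFPE arrays Pex16 (-0.26). The cause was not tested. Counted by probe set, 7284 were higher in FFPE liver and 7142 in brain (4260 and 4020 at 2-fold), since a gene then counts several times. Leaving out pairs or arrays gave 2644 to 4242 genes higher in liver and 2250 to 3303 in brain, or 2130 to 2461 and 1721 to 1769 at 2-fold. A filter on a tissue mean of at least 6, chosen after seeing the data, gave 3017 and 2232 (2103 and 1522 at 2-fold). For FFPE against FF, 2269 genes passed toward liver after quantile normalization, and leaving out arrays gave 3489 to 4416 toward liver and 1693 to 2209 toward brain. At 18 h, 157 passed toward brain after quantile normalization, and leaving out arrays gave 45 to 1035 toward brain and 3 to 265 toward liver. At 3 h, leaving out arrays gave 0 to 9 toward brain and 1 to 18 toward liver; without a filter 0 passed toward brain, and 2 (quantile normalization) or 3 (variance trend) passed toward liver. The comparison of tissues was paired by time; without the time block 3888 genes were higher in liver and 3116 in brain. With 3 matched pairs and 2 residual degrees of freedom the errors lean on the spread shared over genes.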

Other observations

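Short repeats were read by control probe sets of the array. The B1 repeat, a short interspersed element transcribed widely in mouse, read 12.78, 12.86 and 12.84 in FFPE brain and 10.32, 10.38 and 10.91 in FFPE liver at 0, 3 and 18 h, a difference of -2.29. In FF the difference was -5.04, with 7.58, 7.76 and 8.40 in liver. The B2 repeat differed by -0.29 in FFPE and -0.42 in FF.

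Genes of the blood and vessel lists differed in both directions. The endothelial transporters Slco1c1 (-2.30 ± 0.17) and Slc2a1 (-2.20 ± 0.14), known from the blood-brain barrier, were higher in FFPE brain, and the receptor Kdr (1.43 ± 0.21) in FFPE liver. Of 7 genes of the erythroid list tested, 4 were higher in liver and 2 in brain, against 32.5% and 26.2% of all genes tested. The haem enzyme Alas2 led toward liver at 3.71 ± 0.21 and carbonic anhydrase Car2 toward brain at -4.26 ± 0.15. Jchain, of antibody-secreting cells, was higher in FFPE liver at 1.53 ± 0.24.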
